A study of Mus musculus with 6 samples.

Results

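Axon guidance ligands and receptors were followed in mRNA-sequencing of the newborn mouse telencephalon, which includes both cortex and striatum, with and without Tsc1 in the dorsal lineage. The members were found by gene symbol alone, as the genes named as Eph receptors, ephrins, semaphorins, plexins, neuropilins, Slits, Robos, netrins, Unc5 receptors or Dcc, and 67 of the 22651 genes in the tables matched. They comprised 33 ligand genes and 34 receptor genes in 10 families. The control group, WT, held 3 mice of genotype TSC1 flox/flox;Emx1 +/+, and the knockout group, TSC1, held 3 mice of genotype TSC1 flox/flox;Emx1-cre/+, all at postnatal day 0. Mice of both groups thus carried floxed Tsc1, the Cre-negative controls being littermates, and only the TSC1 mice carried Cre, which is expressed from the Emx1 locus in the embryonic dorsal cortex. Cells of other origin in the tissue, such as those of the striatum, keep the gene in this model. One library was made from each mouse.

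Growing axons and migrating neurons read guidance cues through receptors on their surface. Netrins attract through Dcc and repel through the Unc5 receptors, Slits repel through Robos, and semaphorins signal through plexins, the secreted class 3 semaphorins mostly with a neuropilin as co-receptor. Ephrins are held on the cell surface, by a lipid anchor in class A and by a transmembrane segment in class B, and they signal to Eph receptor tyrosine kinases on neighbouring cells while also signalling back into their own cell. In the telencephalon these systems are known for roles in the corpus callosum, the thalamocortical and corticospinal tracts, interneuron migration and the wiring of the striatum.

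Total expected counts, as RSEM assigns reads to genes, ranged from 14119365 to 17772865 per library, and the 67 members took between 0.584% and 0.662% of them. Cre removes a part of Tsc1, so that a transcript can remain. Tsc1 was counted 2230, 1613 and 1157 times in WT replicates 1, 2 and 3, and 1116, 852 and 1004 times in TSC1 replicates 1, 2 and 3. All TSC1 libraries lay below all WT libraries after normalization, with WT replicate 1 the highest, at a log2 fold change of -0.66 (SE, the standard error, 0.175; edgeR adjusted p = 0.09998). Without WT replicate 1 the log2 fold change of Tsc1 was -0.40 (edgeR adjusted p = 0.0659). Markers of the dorsal telencephalon, such as Emx1 and Neurod6, were present in every library, with a summed level of 1610 to 1867 TPM in WT and 1712 to 2160 TPM in TSC1. The subpallial and striatal markers, which include Dlx1, Gad1, Gad2 and Drd2, summed to 672 to 827 TPM in WT and 292 to 501 TPM in TSC1, without overlap. All 16 of them in the tables had a log2 fold change below 0, with a median of -1.40, and 3 (Dlx1, Gad1 and Gad2) passed edgeR's test. The 5 choroid plexus markers summed to 1164 to 2446 TPM in WT and 30.4 to 857 TPM in TSC1. Oligodendrocyte marker sums did not overlap either, at 199 to 255 TPM in WT and 181 to 198 TPM in TSC1. In whole tissue, fewer cells of a type and less RNA per cell cannot be told apart.

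In TPM, a level per transcript length that can be compared between genes, the members spanned several orders of magnitude. Of the 67, 61 had at least 1 TPM in all 6 libraries, and 64 had at least 1 TPM in every library of at least one group. The highest mean levels over the 6 libraries were those of the class B ephrins Efnb3 at 183 TPM and Efnb2 at 162 TPM, followed by the Slit receptor Robo2 at 122 TPM and the Eph receptor Epha4 at 116 TPM. The other members with a mean of at least 100 TPM were Plxna2 at 108 TPM, Plxna1 at 104 TPM and Robo1 at 103 TPM. These are receptors of semaphorins and Slits. The Robos summed to 238 ± 14.7 TPM (SD, n = 3) in WT, while Slit2 and Slit3 together gave 18.2 ± 3.10 TPM; Slit1 was not analysed here. At the low end, 17 members had a mean under 10 TPM and 3 had a mean under 1 TPM, which were Plxnb3, Ntn5 and Epha1.

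**Figure D1:**
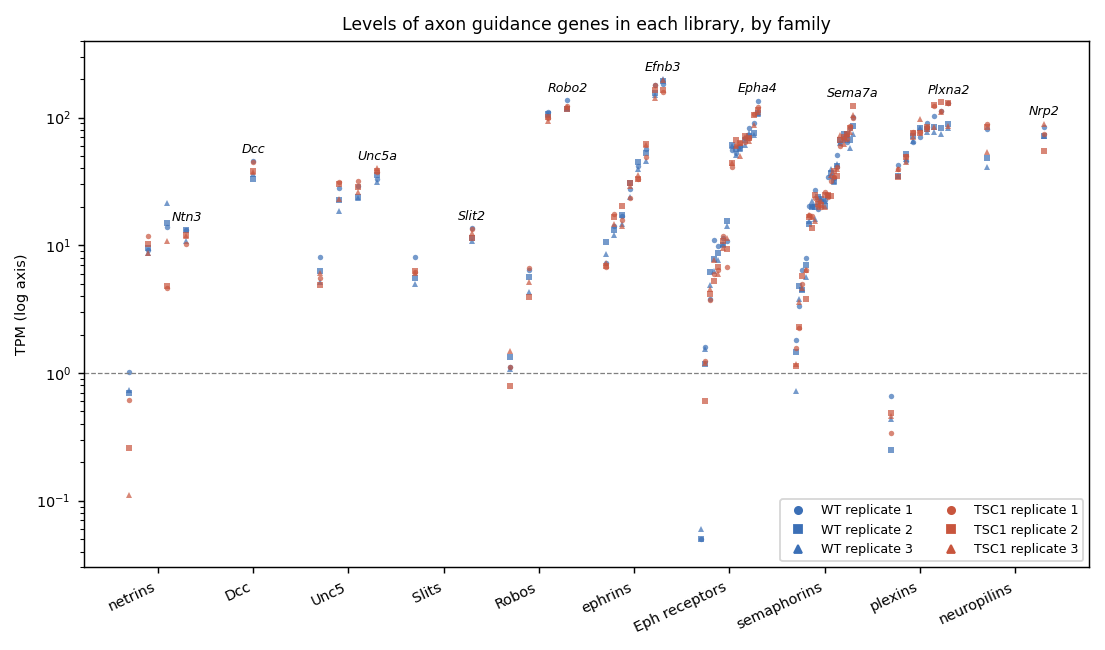
Level of each axon guidance gene in TPM (log axis) in each of the 6 libraries, by family, with genes of a family in order of their mean level and the highest gene named. Blue marks are WT and red marks TSC1, the dashed line is 1 TPM, and levels of 0 (Epha1 in the 3 TSC1 libraries) are not drawn. The highest points belong to Efnb3, with a mean of 183 TPM.

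The summed level of each family showed how much of each system the tissue held. Only the netrin sums did not overlap between the groups among the 10 families. They were 37.4, 38.6 and 41.7 TPM in WT replicates 1, 2 and 3, and 27.3, 27.5 and 31.5 TPM in TSC1 replicates 1, 2 and 3. Netrin sums of TSC1 were thus below those of WT in each mouse, and Ntn1 made most of that gap, as described below. The plexins summed to 593 ± 59.2 TPM (SD, n = 3) in WT and 671 ± 50.2 TPM in TSC1, and the semaphorins to 647 ± 38.4 TPM and 661 ± 13.1 TPM. The Eph receptors gave 558 ± 34.1 TPM in WT and 555 ± 24.2 TPM in TSC1, and the ephrins 514 ± 17.9 TPM and 495 ± 9.17 TPM. In these 4 families the libraries of the 2 groups overlapped. Over all members, the sum was 2866 ± 207 TPM in WT and 2946 ± 84.3 TPM in TSC1. Within the ephrins, the 3 class B genes together did not overlap between the groups, at 389 to 408 TPM in WT and 361 to 375 TPM in TSC1, whereas the 5 class A genes did overlap. Of the 3 class B genes only Efnb1 was without overlap by itself. The class 5 semaphorin sums did not overlap either, at 34.8 to 40.7 TPM in WT and 30.2 to 34.3 TPM in TSC1.

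**Figure D2:**
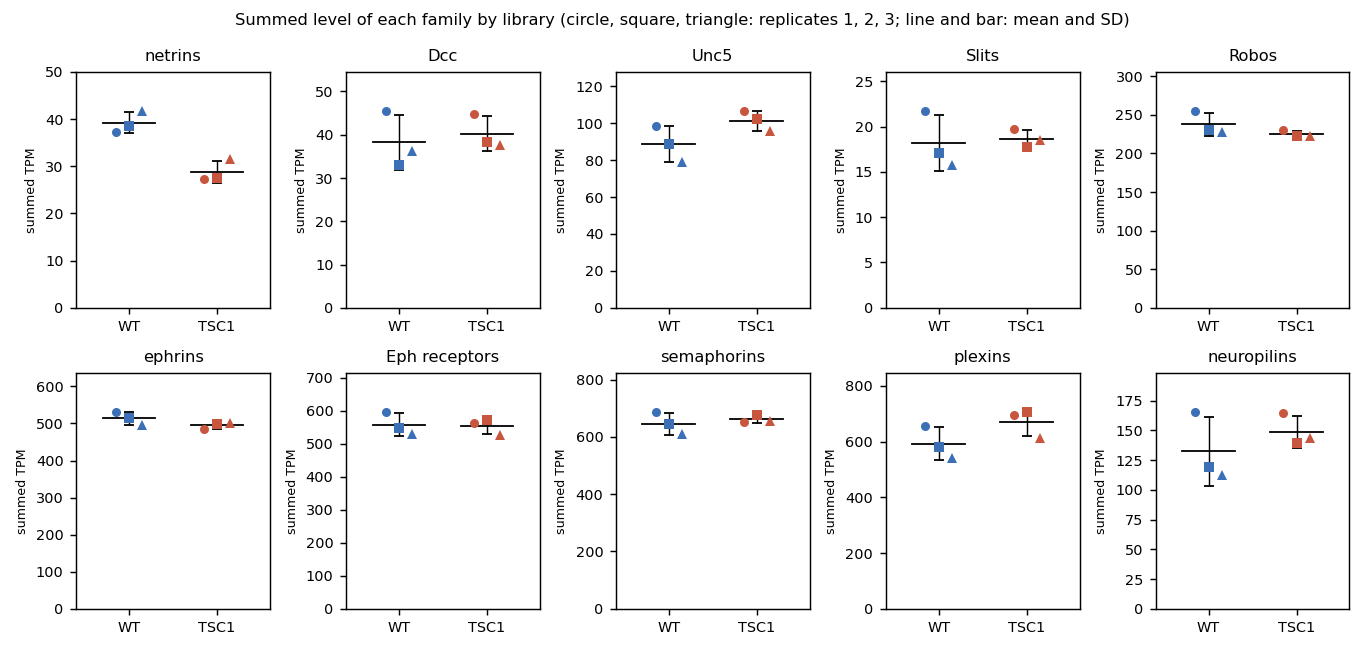
Summed TPM of each of the 10 families in each library, with circle, square and triangle for replicates 1, 2 and 3, a horizontal line at the group mean and a bar of 1 SD, n = 3 mice per group. The netrin panel is the one in which all TSC1 points (27.3 to 31.5 TPM) lie below all WT points (37.4 to 41.7 TPM).

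The comparison of TSC1 with WT asked which of these genes differed after loss of Tsc1. With edgeR's quasi-likelihood test on rounded expected counts, 65 of the 67 members passed the filter on low counts and 1 of them, Ephb1, had a Benjamini-Hochberg adjusted p below 0.05, with lower expression in TSC1. That was 1.54% of the members tested, against 1.52% of all 13969 genes tested (0.859% higher and 0.659% lower), so the share of guidance genes called was near the background. On edgeR's scale, the median log2 fold change of the members was -0.03 and that of all genes tested was -0.003. The median absolute log2 fold change was 0.13 in both. In normalized CPM, the groups did not overlap in 11 members, 4 with all TSC1 libraries above WT and 7 with all below, which is 16.9% of the members against 22.7% of all genes tested (10.9% above and 11.7% below). At an unadjusted p below 0.05, 14 members (21.5%) were found, 9 lower and 5 higher in TSC1, against 18% of all genes (8.93% lower and 9.04% higher). In TPM the groups did not overlap in 12 members, 4 higher and 8 lower in TSC1, against 22.7% of all genes (12.3% higher and 10.3% lower). DESeq2 called 3 members, Efnb1, Ephb1 and Sema5b, against 4.73% of the genes it tested. A log2 fold change above 0 was given to 23 of 65 members by edgeR (35.4%, against 49.3% of all genes). Limma on log2(TPM + 1) gave 34 of 64, but there the median log2 fold change of all genes was 0.026 rather than -0.003. These counts thus do not share a zero point, and no common direction is read from them.

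For many members the edgeR fit bounded the difference. The 95% interval of the log2 fold change lay within 1.5-fold in either direction for 46 of the 65 tested members (70.8%), against 69.3% of all genes tested. In these 46 genes a difference of 1.5-fold or more was outside the interval. The interval uses edgeR's quasi-likelihood variance, which borrows information across genes, and an SE derived from the fold change and its F statistic. It can therefore be narrower than the spread of 3 mice against 3 alone would give. The other 19 include the low-level genes Sema3g, Plxnb3 and Robo3, whose intervals reached past 1.5-fold, and also Ntn1 and Ephb1. With edgeR the whole interval of Ntn1 lay below a 1.5-fold decrease, from -2.06 to -0.62. This bound depends on the method, since DESeq2 gave Ntn1 a larger SE of 0.467 at a log2 fold change of -1.34.

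**Figure D3:**
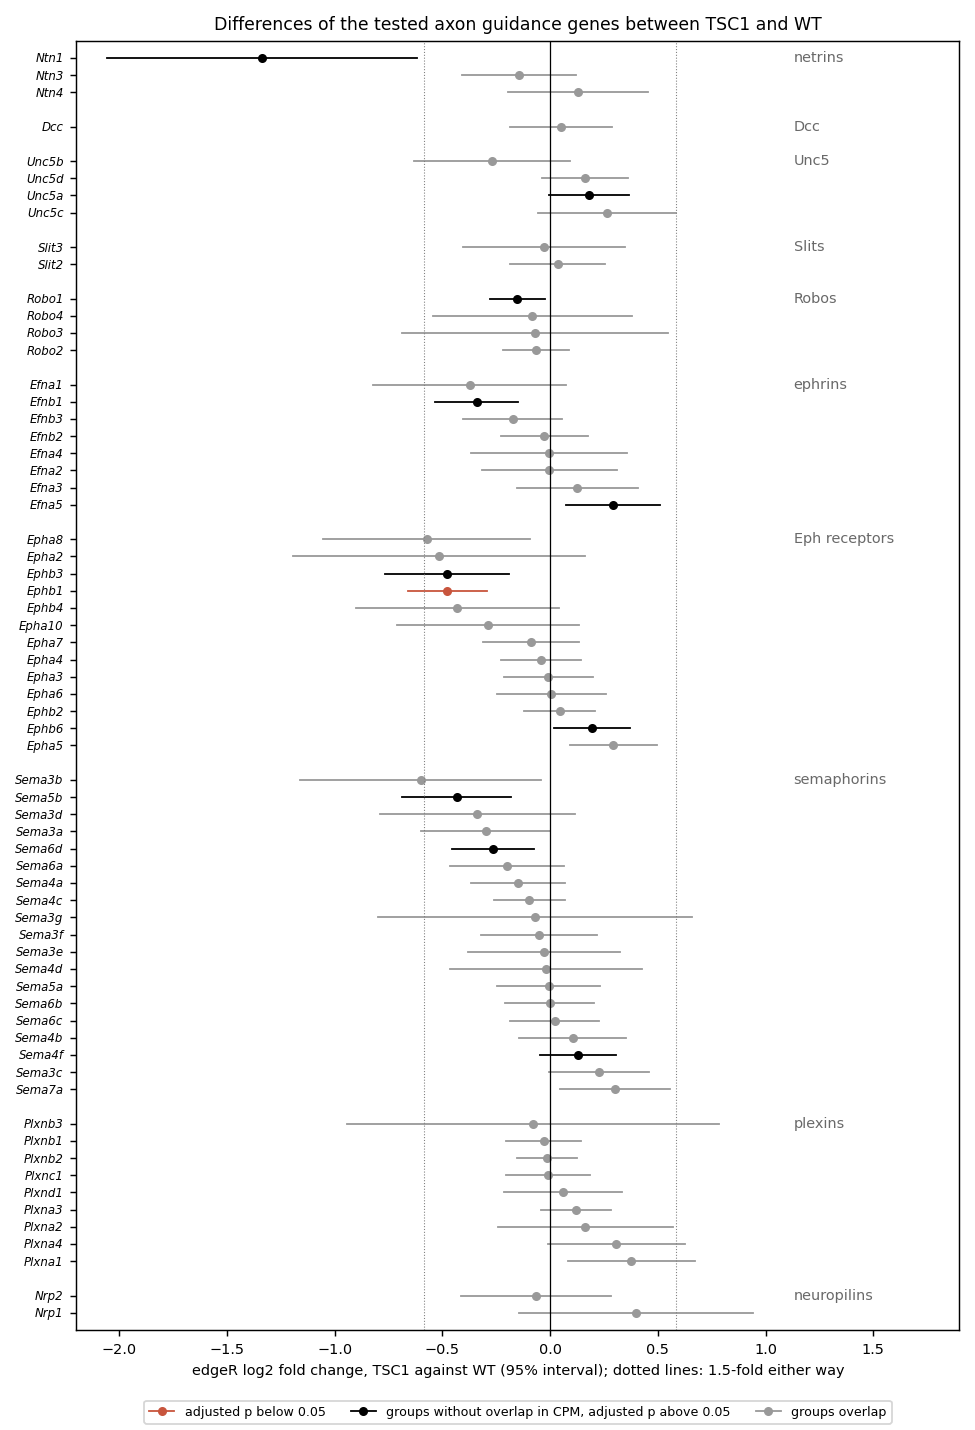
edgeR log2 fold change of the 65 tested members in TSC1 against WT, by family, with the 95% interval as a line and 0 as the solid vertical line; dotted lines mark 1.5-fold either way. Ephb1 (red) is the gene with an adjusted p below 0.05, black marks genes whose groups do not overlap in CPM, and Ntn1 lies farthest from 0 at -1.34.

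Netrins and their receptors held the largest difference of the module. Ntn1, the secreted netrin known for drawing commissural axons to the midline and made in the ventricular zone and striatum of the developing forebrain, lies on chromosome 11 (mm10, 68209364 to 68400823, minus strand). It measured 14.0, 15.03 and 21.3 TPM in WT replicates 1, 2 and 3, and 4.6, 4.8 and 10.8 TPM in TSC1 replicates 1, 2 and 3. All TSC1 values were below all WT values, and replicate 3 was the highest of its group in both. The edgeR log2 fold change was -1.34 (SE 0.319, adjusted p = 0.0739), which missed the threshold. The call depended on the filter, since Ntn1 passed with no filter on low counts (edgeR adjusted p = 0.0414), and on TSC1 replicate 3. Without that library the log2 fold change was -1.87 with an edgeR adjusted p of 0.00148, and 5 members passed (7.69%, against 5.68% of all genes tested in that fit). The subpallial and striatal marker sum was also highest in replicate 3 of each group, at 827 TPM in WT and 501 TPM in TSC1, and the choroid plexus sum was 2446 TPM and 857 TPM in those libraries. Blood markers were highest there too, at 4980 TPM and 1561 TPM, with overlap between the groups. Their part in the Ntn1 values was not tested.

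Ntn3 was the highest netrin gene by mean level over the 6 libraries, at 11.9 TPM, close to Ntn1 at 11.75 TPM. In WT alone Ntn1 was the higher, with a mean of 16.8 TPM against 12.4 TPM for Ntn3. Ntn3 measured 13.1, 13.3 and 10.9 TPM in WT and 10.3, 12.15 and 11.9 TPM in TSC1. Its log2 fold change was -0.14 (SE 0.117, edgeR adjusted p = 0.558). That of Ntn4, a netrin of basement membranes and vessels, was 0.13 (SE 0.144, edgeR adjusted p = 0.676). Ntn5 did not pass the filter on low counts, with 9, 7 and 6 counts (1.02, 0.70 and 0.74 TPM) in WT and 5, 2 and 1 counts (0.61, 0.26 and 0.11 TPM) in TSC1, where every library lay below WT. The netrin receptor Dcc, which spans 1097 kb on chromosome 18, was at 45.4, 33.1 and 36.3 TPM in WT and 44.9, 38.4 and 37.6 TPM in TSC1. These groups overlapped fully, and the log2 fold change of Dcc was 0.05 with a 95% interval from -0.19 to 0.29. The level of Ntn1 relative to Dcc within a library, a ratio chosen after the values were seen, was 0.309, 0.455 and 0.587 in WT and 0.103, 0.125 and 0.286 in TSC1. The ratio was therefore lower in each TSC1 library than in each WT library.

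Unc5 receptors carry the repulsive response to netrin. Unc5a, the highest of the 4 at a mean of 36.1 TPM, measured 33.3, 35.7 and 31.6 TPM in WT and 37.8, 38.2 and 40.1 TPM in TSC1. The TSC1 libraries were all above WT, by a log2 fold change of 0.18 (SE 0.081, edgeR adjusted p = 0.286) that missed the threshold. Unc5c and Unc5d had log2 fold changes of 0.26 and 0.16 with overlapping groups, and Unc5b, which is known from endothelial cells, had -0.27. Endothelial markers summed to 210 to 277 TPM in WT and 180 to 212 TPM in TSC1, and their part in the Unc5b values was not tested. With edgeR 0 of the 4 passed, with adjusted p-values from 0.286 to 0.416, and 0 passed with DESeq2. At an unadjusted edgeR p below 0.05 there were 0, beside 18% of all genes tested.

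In the Slit and Robo system 0 of 6 genes passed edgeR's test and 0 passed with DESeq2. An unadjusted edgeR p below 0.05 was found for 1 (Robo1), beside 18% of all genes tested. Robo1, which spans 738 kb on chromosome 16, had 109.8, 107.0 and 104.8 TPM in WT and 99.3, 100.6 and 94.5 TPM in TSC1. Every TSC1 library was below every WT library, but the gap was small beside that of Ntn1, with a log2 fold change of -0.15 (SE 0.0566, edgeR adjusted p = 0.195). Robo2 measured 137.4, 116.3 and 118.1 TPM in WT and 123.4, 116.9 and 120.8 TPM in TSC1, and its interval ran from -0.22 to 0.09. Robo3, a receptor of commissural axons, and Robo4, an endothelial receptor, were low at 1.15 and 5.35 TPM in mean. Slit2 gave 13.6, 11.5 and 10.8 TPM in WT and 13.5, 11.5 and 12.4 TPM in TSC1, and its log2 fold change was 0.03 (edgeR adjusted p = 0.884). Slit3 had -0.03 on the same scale.

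Among the Eph receptors, Ephb1 fell in TSC1. Ephb1 is a receptor tyrosine kinase for class B ephrins, known for the ipsilateral turn of retinal axons and for axon tracts of the forebrain, and its gene spans 433 kb on chromosome 9 (mm10, 101922128 to 102354693, minus strand). It measured 56.1, 61.0 and 59.9 TPM in WT and 41.0, 44.3 and 44.4 TPM in TSC1. The groups did not overlap, and the coefficient of variation was 4.41% in WT and 4.54% in TSC1. The log2 fold change was -0.48 (SE 0.0818, edgeR adjusted p = 0.0312), which is 28.2% lower in TSC1. The call was lost when WT replicate 2, WT replicate 3, TSC1 replicate 1 or TSC1 replicate 2 was left out, with edgeR adjusted p-values of 0.157, 0.127, 0.155 and 0.126, although the log2 fold change stayed between -0.50 and -0.42 in those fits. The subpallial and striatal marker sum separated the groups in the same direction as Ephb1, at 296, 292 and 501 TPM in TSC1 replicates 1, 2 and 3. The choroid plexus and oligodendrocyte sums did so too, and the part of these markers in the Ephb1 values was not tested.

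Of the remaining EphB receptors, Ephb3 and Ephb4 had log2 fold changes below 0 and Ephb2 and Ephb6 above 0. Ephb3 measured 9.93, 8.74 and 7.66 TPM in WT and 6.40, 6.82 and 6.01 TPM in TSC1. Its log2 fold change of -0.48 was as large as that of Ephb1, with an SE of 0.127 and an edgeR adjusted p of 0.0975. Ephb4, known from venous endothelium, measured 10.97, 7.82 and 6.27 TPM in WT and 5.94, 5.23 and 7.61 TPM in TSC1. These groups overlapped, and the log2 fold change of Ephb4 was -0.43 (SE 0.209, edgeR adjusted p = 0.317). Ephb6, a member whose kinase domain is inactive, lay the other way, at 52.8, 56.6 and 51.4 TPM in WT and 61.1, 66.7 and 59.7 TPM in TSC1. All its TSC1 libraries were above WT, with a log2 fold change of 0.19 (SE 0.0787, edgeR adjusted p = 0.239). Ephb2, the most abundant EphB gene, had a log2 fold change of 0.04 with an interval from -0.12 to 0.21. The ratio of Ephb1 to Ephb2 in a library, again chosen after the values were seen, was 0.814, 0.914 and 0.975 in WT and 0.633, 0.616 and 0.634 in TSC1. It separated the groups and varied little among the TSC1 mice.

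Of the 8 EphA receptors tested, 0 passed edgeR's test and 0 passed with DESeq2. An unadjusted edgeR p below 0.05 was found for 2 (Epha5 and Epha8), beside 18% of all genes tested. Epha8 measured 10.8, 15.5 and 14.2 TPM in WT and 6.77, 9.42 and 11.5 TPM in TSC1, so that TSC1 replicate 3 lay above WT replicate 1. Its log2 fold change was -0.57 (SE 0.213, edgeR adjusted p = 0.197). Epha4, known from corticospinal and thalamocortical axons, was the highest EphA gene, with 136, 109 and 107 TPM in WT and 122, 115 and 110 TPM in TSC1. The interval of Epha4 was narrow, from -0.23 to 0.14. Epha5 had 90.6, 76.2 and 73.0 TPM in WT and 106, 105 and 87.3 TPM in TSC1, and its log2 fold change was 0.29 (edgeR adjusted p = 0.134). Among the fits that left out 1 library, Epha5 passed only without TSC1 replicate 3. Epha1 was near the limit of counting, with 1 count in each WT library and 0 in each TSC1 library, where 3 counts correspond to between 0.169 and 0.212 CPM.

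Epha7 was the member in which the choice of unit mattered most, and it was singled out after its values were seen. RSEM's length of a gene is the mean of its transcripts weighted by their estimated abundance, and of the 16 tested members with several transcripts, Epha7 had the largest difference. Its length was 5164, 4736 and 4567 bases in WT and 5439, 5385 and 4708 bases in TSC1. The TSC1 mean was 7.35% longer with overlap between the groups, so the difference was within the spread between mice. In TPM, the Epha7 groups did not overlap, at 83.1, 71.7 and 75.3 in WT and 69.4, 69.7 and 65.7 in TSC1, whereas in CPM they did, at 124 to 151 in WT and 112 to 135 in TSC1. No member had a length apart by 10% or more without overlap, against 0.15% of the tested genes with several transcripts.

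Ephrins, the ligands of these receptors, held 2 of 8 genes whose groups did not overlap in CPM, beside 22.7% of all genes tested. Efnb1, a class B ephrin on chromosome X known for cell sorting, had 41.8, 44.7 and 39.5 TPM in WT and 33.1, 32.8 and 35.4 TPM in TSC1. Its log2 fold change was -0.34 (SE 0.0850, edgeR adjusted p = 0.0835), and it passed with DESeq2 (adjusted p = 0.0439) and without TSC1 replicate 3. Efna5, a class A ephrin known from topographic maps and cortical areas, lay the other way, at 14.1, 13.18 and 11.98 TPM in WT and 17.6, 16.7 and 14.8 TPM in TSC1. Its log2 fold change was 0.29 (SE 0.0960, edgeR adjusted p = 0.159). Efnb3, the most abundant member of all, measured 185, 192 and 200 TPM in WT and 157, 164 and 199 TPM in TSC1, so that TSC1 replicate 3 lay within the WT range while the other TSC1 libraries lay below it. The log2 fold change of Efnb3 was -0.17 (edgeR adjusted p = 0.407). Efnb2 was at -0.03 with an interval from -0.23 to 0.18.

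**Figure D4:**
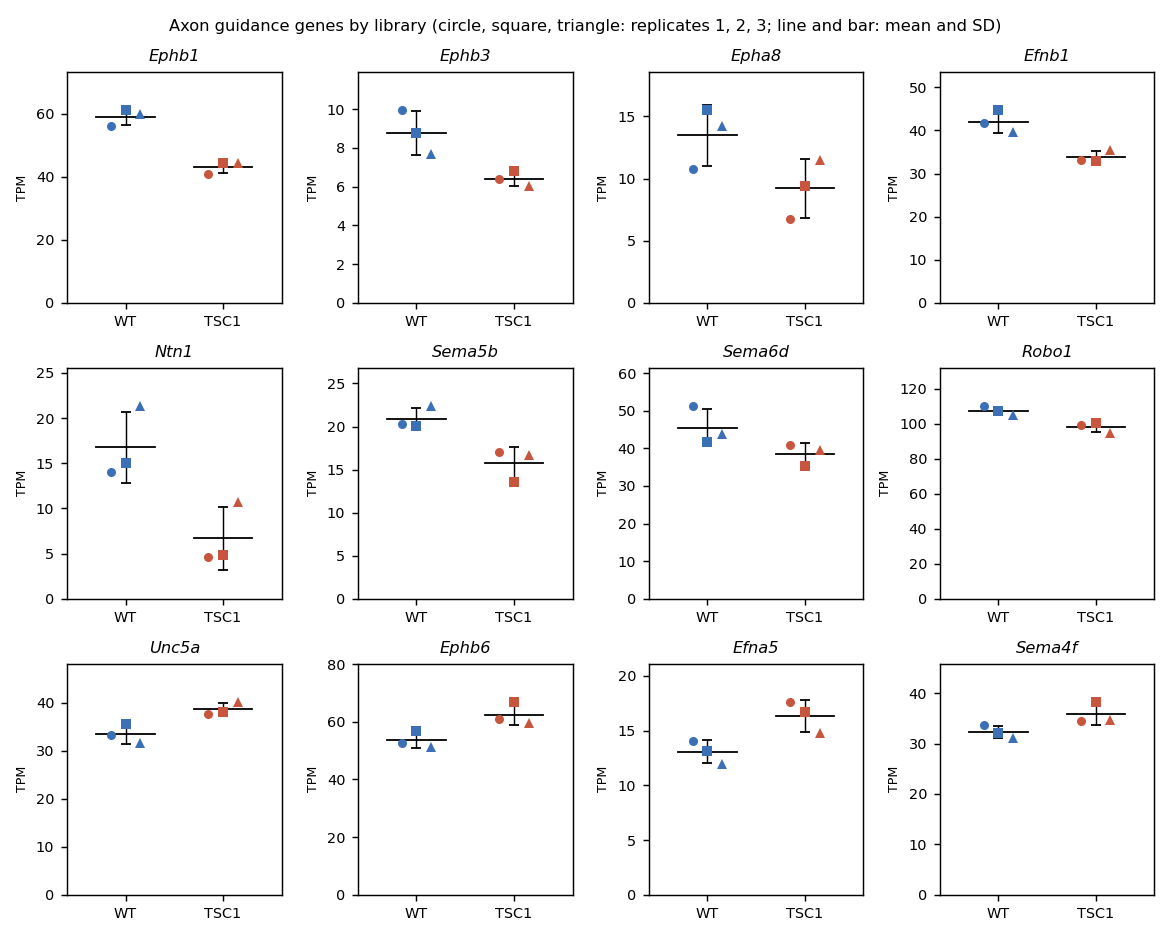
TPM of 12 guidance genes in each library: the 11 whose groups do not overlap in CPM and Epha8. Circle, square and triangle are replicates 1, 2 and 3, the line is the group mean and the bar 1 SD, n = 3 mice per group, and each axis starts at 0. The mean of Ntn1 was 16.8 TPM in WT and 6.72 TPM in TSC1, and that of Ephb1 was 59.0 and 43.2 TPM.

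Of the 19 semaphorins 0 passed edgeR's test, and 1 (Sema5b) passed with DESeq2, beside 4.73% of the genes that DESeq2 tested. An unadjusted edgeR p below 0.05 was found for 4 (Sema3b, Sema5b, Sema6d and Sema7a), beside 18% of all genes tested. A log2 fold change above 0 was found for 5 with edgeR and for 10 with limma on log2(TPM + 1). The median of all genes was itself 0.026 in that limma fit, so no group-wide direction is read. Sema5b, a transmembrane semaphorin, measured 20.3, 20.02 and 22.3 TPM in WT and 17.02, 13.6 and 16.6 TPM in TSC1. Its TSC1 libraries were all below WT, at -0.43 on the log2 scale (SE 0.112, edgeR adjusted p = 0.0905; DESeq2 adjusted p = 0.0335). Sema6d, a ligand of class A plexins, had 51.1, 41.7 and 43.7 TPM in WT and 40.9, 35.2 and 39.5 TPM in TSC1, and its log2 fold change was -0.26 (SE 0.0847, edgeR adjusted p = 0.149). The groups of Sema6d were apart by less than the range within WT. Sema4f gave 33.6, 32.1 and 31.1 TPM in WT and 34.5, 38.2 and 34.7 TPM in TSC1, and its log2 fold change was 0.13 (edgeR adjusted p = 0.426).

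Sema7a, a lipid-anchored semaphorin that promotes axon growth through integrins, was the highest of the family, at 101.3, 86.4 and 74.4 TPM in WT and 99.7, 124 and 104 TPM in TSC1. WT replicate 1 lay within the TSC1 range, and the log2 fold change was 0.30 (SE 0.114, edgeR adjusted p = 0.206). The 7 secreted class 3 genes ran from -0.60 for Sema3b, at a mean of 3.34 TPM, to 0.23 for Sema3c, at 75.8 TPM. Sema3a, the classic repellent of cortical axons, had 34.6, 37.1 and 39.9 TPM in WT and 31.9, 24.5 and 35.7 TPM in TSC1, and its log2 fold change of -0.30 had an edgeR adjusted p of 0.28. Sema3c, known for attracting callosal axons, passed only without WT replicate 1 among the fits that left out 1 library.

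Plexins, the signalling receptors of the semaphorins, had 0 of 9 genes past the threshold of edgeR and 0 with DESeq2. An unadjusted edgeR p below 0.05 was found for 1 (Plxna1), beside 18% of all genes tested. The 4 class A plexins had log2 fold changes of 0.38 for Plxna1, 0.31 for Plxna4, 0.16 for Plxna2 and 0.12 for Plxna3, with edgeR adjusted p-values from 0.176 to 0.67. All 4 stayed above 0 under each of the 15 alternatives. These alternatives refit all or part of the same 6 libraries and are not independent evidence, so no direction of the class is read. Plxna2, the highest of them, measured 130, 89.9 and 82.5 TPM in WT and 130, 129 and 85.2 TPM in TSC1. WT replicate 1 thus sat with TSC1 replicates 1 and 2, and TSC1 replicate 3 with the other WT libraries. Plxna4 measured 102, 84.9 and 77.3 TPM in WT and 124, 124 and 84.3 TPM in TSC1, so that TSC1 replicate 3 lay within the WT range and the other TSC1 libraries above it. Plxna1 passed without WT replicate 1 and Plxna4 without TSC1 replicate 3. The class B genes Plxnb1 and Plxnb2 lay near WT, at -0.03 and -0.01, as did Plxnc1 at -0.01 and Plxnd1 at 0.06.

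Neuropilins bind class 3 semaphorins and also VEGF. Nrp1 measured 81.5, 48.2 and 40.7 TPM in WT and 89.8, 84.5 and 53.8 TPM in TSC1, and Nrp2 measured 83.8, 71.2 and 71.7 TPM in WT and 74.6, 54.6 and 89.7 TPM in TSC1. Nrp1 had a coefficient of variation of 38.2% among the WT mice, and its log2 fold change of 0.399 had an interval from -0.14 to 0.94 (edgeR adjusted p = 0.422). Nrp2 was at -0.07 (edgeR adjusted p = 0.856). WT replicate 1 was the highest WT library in 35 of the 65 tested members (53.8%), against 41.3% of all genes tested, and the values of Nrp1, Plxna2 and Dcc above show it.

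The other genes of the pathway were taken from a fixed list of 77 guidance co-receptors and intracellular effectors, of which 72 were tested. One passed edgeR's test (1.39%, against 1.52% of all genes tested), Met, the HGF receptor that also pairs with plexins, and it rose in TSC1. Met had 37.8, 30.04 and 26.97 TPM in WT and 54.1, 55.1 and 42.0 TPM in TSC1, without overlap. Its log2 fold change was 0.65 (SE 0.126, edgeR adjusted p = 0.0463), and without WT replicate 2, WT replicate 3, TSC1 replicate 1 or TSC1 replicate 2 the adjusted p was 0.153 to 0.192 at 0.57 to 0.62. With limma on log2(TPM + 1) and log2(TPM + 0.1) Met did not pass either, at 0.66 and 0.68 (adjusted p = 0.0573 and 0.0619). Of the 72, 46 had a log2 fold change above 0 and 26 below, with a median of 0.08, and 49.3% of all genes tested were above 0 with edgeR. Over the alternatives 41 to 50 were above 0. The value of 50 came from limma on TPM, where the median log2 fold change of all genes was itself 0.026 to 0.028. The groups did not overlap in 14 of the 72 with higher and 3 of the 72 with lower levels in TSC1, against 10.9% and 11.7% of all genes tested. After Met, the largest of the 14 were Dpysl2 at 0.35 and Pak3 at 0.31 (edgeR adjusted p = 0.131 and 0.0854). The 3 lower genes were Flrt3 at -0.39, Vav3 at -0.26 and Tiam1 at -0.20. The lowest log2 fold change of the 72 was that of Ngef, the exchange factor ephexin that acts below EphA receptors. It was -0.56 (edgeR adjusted p = 0.166), with overlapping groups.

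**Figure D5:**
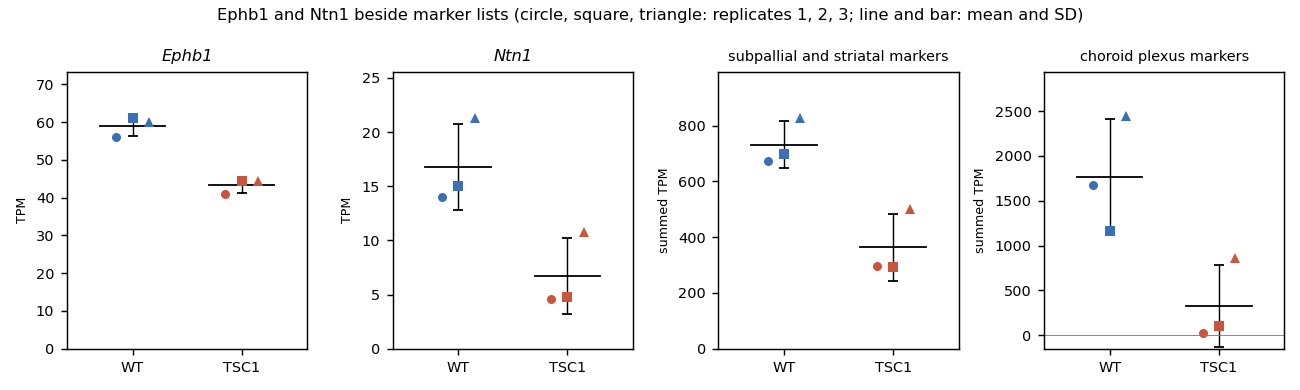
Ephb1 and Ntn1 in TPM beside the summed TPM of 16 subpallial and striatal markers and of 5 choroid plexus markers in each library, with circle, square and triangle for replicates 1, 2 and 3, a line at the group mean and a bar of 1 SD, n = 3. Replicate 3 is the highest of its group for Ntn1 and for both marker sums, and the groups do not overlap in any of the 4 panels.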

How the data were processed

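RNA of telencephalon from 3 WT and 3 TSC1 mice was sequenced by the authors with TruSeq libraries and paired reads, aligned to mm10 with MapSplice2 and quantified on RefSeq transcripts with RSEM 1.2.12 (version per the labels). The deposited expected counts are RSEM's estimates of reads per gene and were not normalized. The deposited TPM and FPKM were scaled by RSEM for effective length and depth, and FPKM was not used here. The deposited lengths are in bases.

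Groups and replicate numbers came from the sample titles. After rounding, the expected counts of all genes entered edgeR (version 4.0.16, under R 4.3.3) with TMM factors (filterByExpr, quasi-likelihood test, no covariate), with Benjamini-Hochberg adjustment over 13969 genes and a threshold of 0.05. The study's own test, which pools permuted samples over genes, was replaced by this count test. Non-overlap was read on normalized CPM. Alternatives used DESeq2 1.42.0, limma 3.58.1, other scalings and filters, effective lengths, a replicate block and each library left out. Totals were 14119365 to 17772865, where 3 counts are 0.169 to 0.212 CPM. Positions are GENCODE M21 on GRCm38, the assembly of mm10.

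Genes with full values were those called, those without overlap between groups (at most 15), the highest gene of each family, and Epha8, Ephb1 and Ntn1. Others were singled out after their values were seen. The members and lists were chosen with earlier results of these data known. On simulated counts with changes of 1.5 in log2, edgeR recovered 94.4% of 198 changed genes with 16 false calls among 13889 genes. These false calls were 7.88% of its calls there. All tested members had smaller log2 fold changes in size, the largest being -1.34 for Ntn1. Recovery at the sizes seen in the members was not tested.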

Additional observations from a re-analysis of the deposited data

How the results depend on the processing

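The reported fit called 1 of 65 members (1.54%) and 212 of 13969 genes (1.52%). DESeq2 called 3 members (4.62%) and 640 of 13537 genes (4.73%). With no filter on low counts edgeR called 2 of 67 members and 346 of 18026 genes, with Ntn1 at an adjusted p of 0.0414. The causes were not tested. Leaving out each library in turn gave 0 to 5 members and 29 to 799 genes. Same-numbered samples were not treated as pairs, since no source ties a number to a litter or batch. The correlations of their deviations from the group means were 0.267, -0.133 and 0.318 for replicates 1, 2 and 3. Those of differently numbered WT and TSC1 samples ran from -0.394 to 0.211. A shared litter cannot be told from these values. With a replicate block edgeR called 3 of 65 members (4.62%) and 551 of 13969 genes. These members were Epha8, Ephb1 and Ntn1, the last at an adjusted p of 0.00464. Tsc1 passed with DESeq2 (log2 fold change -0.65, adjusted p = 0.00328) and with the block (-0.63, adjusted p = 0.0217). Signs turned for 4 genes near 0 in fits without 1 library, whose log2 fold changes ranged from -0.041 to 0.166 for Dcc, -0.089 to 0.051 for Epha4, -0.26 to 0.10 for Nrp2 and -0.012 to 0.11 for Slit2. Ephb1 passed in 11 of 15 alternatives and Ntn1 in 3, with log2 fold changes of -1.87 to -1.11. Among the alternative values of the named members, 298 kept their sign and side of the threshold, 7 newly passed, 4 no longer passed and 6 turned sign. Among the edgeR fits, Epha1 and Ntn5 entered only the one with no filter on low counts and were not called there. DESeq2 started from the counts of all genes and did not call them either.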
